A study of Homo sapiens with 5 samples.

Results

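Of 40 listed inflammatory cytokines and targets of the transcription factor NF-kB, 34 were measured among 14232 genes, and they are described here in 2 human lung cancer cell lines with altered NEDD9, a scaffold protein of focal adhesions. The list was written from known biology, but with earlier results of these data known. Its shares set beside those of all genes are therefore descriptions and not independent tests. A gene counted as measured when a feature of the array (a set of probes over 1 transcript cluster) carried its symbol alone. The brightest such feature was taken. CXCL1, NFKBIZ and IL1RL1 lay only on features shared with another gene and received no value, and BIRC3, CSF2 and IL33 are not analysed here. The A549 arrays, from an established adenocarcinoma line whose LKB1 is mutated per the submitters, comprised 1 control and 1 array for each of 2 short hairpins against NEDD9 (shNEDD9 #1 and shNEDD9 #2, so n = 2 for knockdown). The CRL-5907 arrays, from a line whose LKB1 is wild type per the submitters (not checked here), comprised 1 control and 1 with NEDD9 overexpressed. Any construct in the control cells, the promoter that drove NEDD9, clonality and separate culture are not given in the labels, so the spread between arrays may be technical. For hairpin 2 the description reads NEDD10 but the other labels read NEDD9, which was used here.

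NF-kB is a family of dimeric transcription factors (among them RELA, RELB and the products of NFKB1 and NFKB2) held in the cytoplasm by inhibitors such as IkB-alpha, the product of NFKBIA. Signals from TNF, IL-1 and Toll-like receptors activate a kinase complex that has the inhibitor degraded, and the freed dimers switch on cytokine and chemokine genes. The same dimers induce NFKBIA and TNFAIP3, which close the loop by shutting the signal off. Epithelial cells of the lung, and the carcinomas that arise from them, can secrete IL-6, IL-8 (gene CXCL8) and CCL2, which act on leukocytes and on the tumour cells themselves.

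NEDD9 had log2 levels of 8.94 on the A549 control array, 8.35 with hairpin 1, 8.52 with hairpin 2, 4.66 on the CRL-5907 control array and 9.49 with overexpression. The knockdown was thus partial (33.4% and 24.8% lower) and the overexpression large (28.5-fold). The CRL-5907 control value of NEDD9 lay below that array's median (5.69), so no exact size is read from this fold. All 6 epithelial markers lay above the array median on all 5 arrays. None of 6 endothelial markers did so on any array, and of 7 fibroblast markers only COL1A1 did, on both CRL-5907 arrays. Of 8 leukocyte markers CD68, which epithelial lines also express, did so on all arrays and LCP1 on the CRL-5907 control array. PTPRC, which defines leukocytes, stood at 1.72 on every array. Values below an array's median (5.69 to 5.85) were not shown to exceed background. Of the 34 genes 16 were above the median on all 5 arrays, 7 on some and 11 on none. Exactly equal values on 2 or more arrays, which RMA can assign, occurred in 10 of the 34 genes. The share of all genes with such values was not counted, so this is not read as a trait of the list. Of the 10 genes, CX3CL1 was equal on all 3 A549 arrays (1 of 34, beside 5.37% of all genes).

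**Figure D1:**
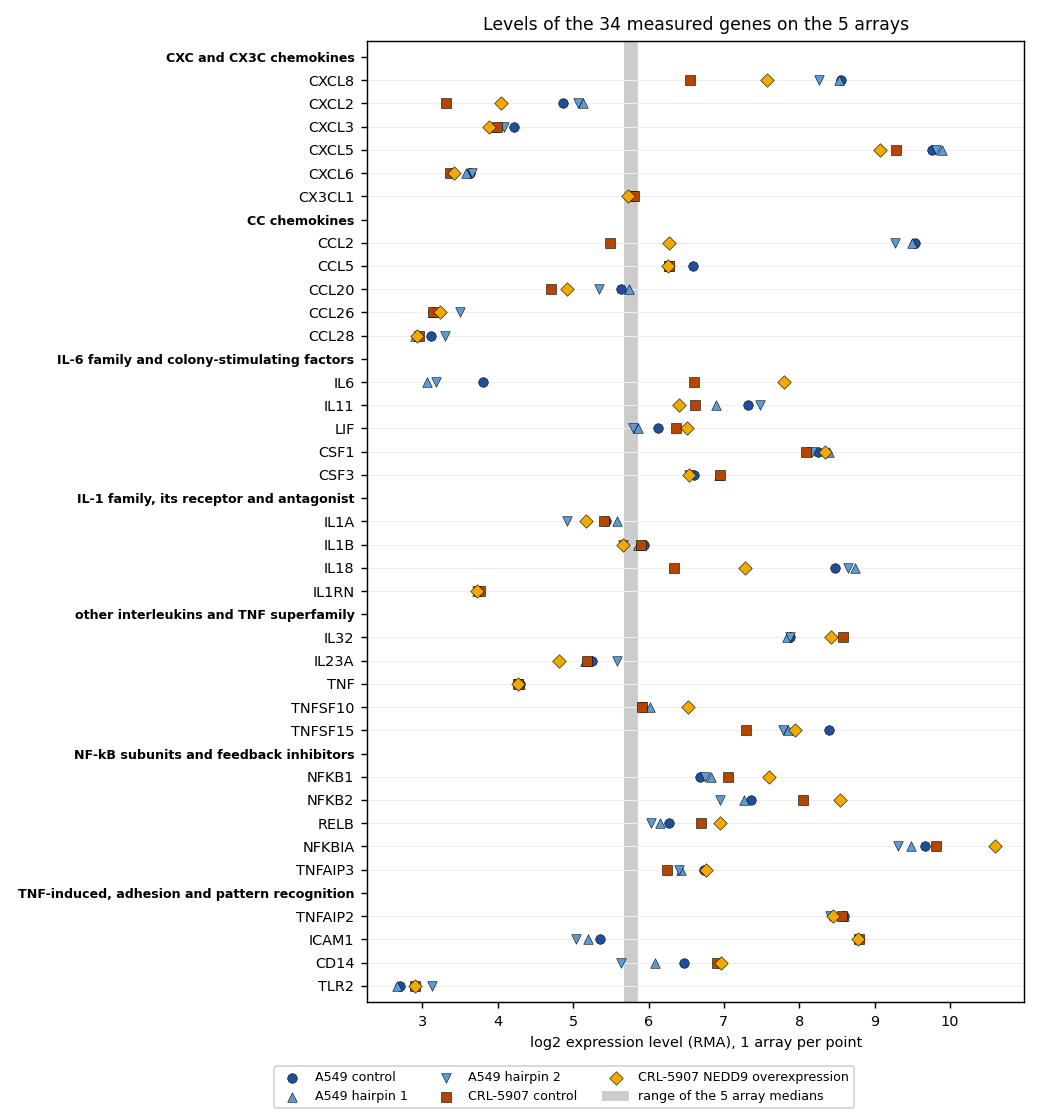
Log2 expression level of the 34 measured genes, grouped by role, with 1 point per array and the range of the 5 array medians as a grey band. For CCL2, CXCL8 and IL18 all 3 A549 points lie to the right of both CRL-5907 points, and for IL6 and ICAM1 to the left.

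With NEDD9 overexpression 8 of the 34 genes were at least 1.5-fold higher than on the CRL-5907 control array and 0 were at least 1.5-fold lower. Over all 14232 genes 2.9% were higher and 1.35% lower by that fold. The 8 genes were the cytokines and chemokines IL6, CXCL8, IL18, CCL2 and CXCL2, the TNF-family ligands TNFSF15 and TNFSF10, and the inhibitor NFKBIA. The median difference of the 34 genes was only 0.05 on the log2 scale, beside 0.00 for all genes, so the middle of the list lay near that of all genes. Just under 1.5-fold lay NFKB1 (0.54, the 501st highest of all genes), TNFAIP3 (0.51, the 585th) and NFKB2 (0.48, the 680th). By sign alone 18 of the 34 were higher, beside 48.1% of all genes. With 1 array in each condition there is no spread and no test for this comparison. These are bulk cultures, in which fewer expressing cells and less RNA per cell cannot be told apart. The SD of the difference between the hairpin arrays, over genes of like level, was 0.129 to 0.266 for the 34 genes. It mixes differences between the hairpins with array error and comes from A549 only, so it gives no error for the overexpression differences.

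With hairpin 1 alone 1 of the 34 genes (IL6) was at least 1.5-fold lower and 0 higher, beside 1.27% and 2.59% of all genes. With hairpin 2 alone 3 were lower (IL6, TNFSF15 and CD14) and 0 higher, beside 0.913% and 1.57%. In both, 1 of the 34 genes, IL6, was at least 1.5-fold lower with both hairpins, beside 0.302% of all genes, and 0 were higher by that fold, beside 0.794%. The median difference of the 34 was -0.04 with hairpin 1 and -0.10 with hairpin 2, where all genes had 0.02 and 0.00. By sign 17 of the 34 were lower with both hairpins and 4 higher with both, beside 27.7% and 39.6% of all genes. The share of all genes depended on scaling: with arrays centred on their medians it was 46.4% lower with both, and 20 of the 34. limma's test with Benjamini-Hochberg adjustment called 0 of the 34 and 0.0% of all genes. At an unadjusted p under 0.05 it gave 5 of the 34, all lower (IL6, TNFSF15, TNFAIP3, CCL5 and LIF), beside 5.92% of all genes lower and 9.68% higher. With 1 control array the limma fit had 1 residual degree of freedom, and it did not call NEDD9 itself, the gene both hairpins target. The lack of calls is therefore not read as a lack of change. Both hairpins subtract the same control array, so the SD between them leaves out that array's error. An exact permutation test of 2 arrays against 1 could not go below 1 in 3.

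**Figure D2:**
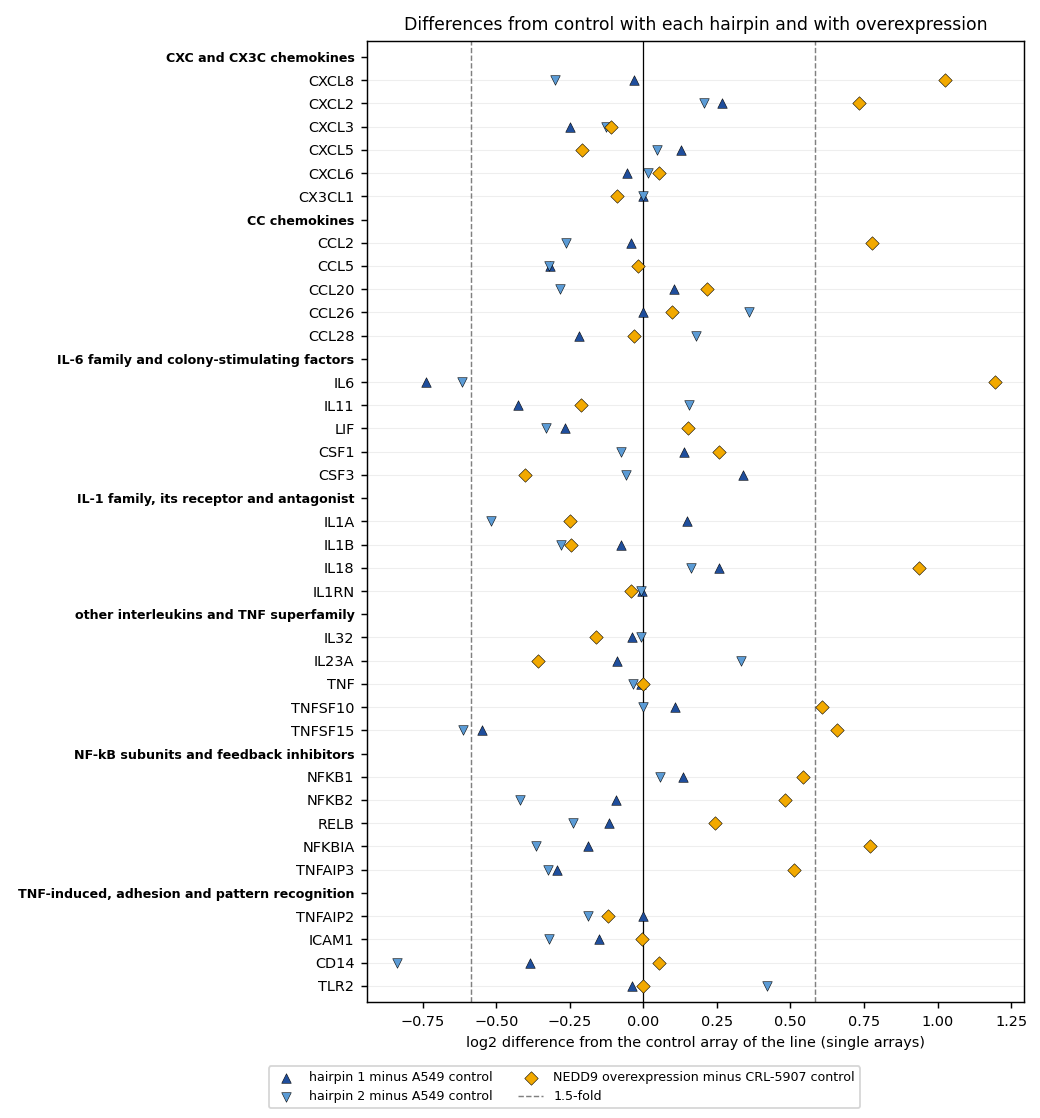
Log2 difference from the control array of the same line for each of the 34 genes with hairpin 1, hairpin 2 and overexpression, with dashed lines at 1.5-fold. The diamonds of 8 genes lie beyond the right-hand line, and only IL6 has both triangles beyond the left-hand line.

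Among the CXC chemokines, small secreted proteins of which those measured here attract neutrophils, CXCL8 and CXCL2 passed 1.5-fold with overexpression and CXCL3, CXCL5 and CXCL6 did not. CXCL8, which encodes interleukin-8, had log2 levels of 6.55 on the CRL-5907 control array and 7.58 with overexpression, a difference of 1.02 or 2.03-fold, the 68th highest of all genes. In A549 it was at 8.56 on the control array, 8.52 with hairpin 1 and 8.26 with hairpin 2, a mean difference of -0.17 ± 0.19 (SD, n = 2). CXCL8 was thus above the array median on all 5 arrays, lowest on the CRL-5907 control array, and its knockdown difference was smaller than the SD between the hairpins. CXCL2, a relative of CXCL1, was at 3.31 and 4.05 in CRL-5907, a difference of 0.73, and at 4.86, 5.13 and 5.06 on the A549 arrays. All 5 CXCL2 values lay below the array medians, so its difference was not shown to exceed background. CXCL5 was bright on every array and read slightly lower with overexpression, 9.07 beside 9.28 on the control array. That difference was under 1.5-fold and only the 1814th lowest of all genes. The A549 arrays read 9.76 (control), 9.89 (hairpin 1) and 9.81 (hairpin 2) for CXCL5. Its positive hairpin differences of 0.13 and 0.05 turned negative when the arrays were quantile normalized again. CXCL3 and CXCL6 stayed below the medians on all arrays, with overexpression differences of -0.11 and 0.05. CX3CL1, a membrane-bound chemokine also called fractalkine, had the same value of 5.79 on all 3 A549 arrays, 5.81 on the CRL-5907 control array and 5.72 with overexpression. CXCL2, CXCL3 and CXCL1 are near-identical paralogs, and their probes can cross-hybridise.

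The stretches before the starts of these chemokine genes are shown because all hold the NF-kB (kB) letters GGAATTTCC, while the bright genes CXCL8 and CXCL5 had overexpression differences of opposite sign. All 5 genes lie on chromosome 4, and the letters are from RefSeq (GRCh38.p14), 5′ to 3′ on the gene's strand. Capitals mark matches to the kB consensus or to the 9-letter form GGNNNTTCC, on either strand; the forms overlap.
CXCL8: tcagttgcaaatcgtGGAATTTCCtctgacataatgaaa
CXCL2: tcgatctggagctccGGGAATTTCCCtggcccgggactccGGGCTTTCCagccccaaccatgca
CXCL3: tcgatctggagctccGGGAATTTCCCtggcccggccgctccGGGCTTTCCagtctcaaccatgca
CXCL5: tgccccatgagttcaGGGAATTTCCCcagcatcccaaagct
CXCL6: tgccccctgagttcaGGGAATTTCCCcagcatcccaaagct
The CXCL8 stretch is chr4:73740463-73740501 on the plus strand and ends 68 bases before the start. The CXCL2 and CXCL3 stretches, chr4:74099225-74099288 and chr4:74038719-74038783 on the minus strand, share their first 34 bases and both pairs of capitals. The CXCL5 and CXCL6 stretches, chr4:73998743-73998783 on the minus strand and chr4:73836573-73836613 on the plus strand, are equal at 40 of 41 positions. Of the 5 genes only CXCL8 and CXCL5 lay above the array medians, and their overexpression differences were 1.02 and -0.21, the latter under 1.5-fold. These matches are letters only and were not measured as sites.

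Of the 5 measured CC chemokines, which attract leukocytes, only CCL2 passed 1.5-fold with a hairpin or with overexpression. CCL2, the monocyte attractant MCP-1, read 5.49 (log2 level) on the CRL-5907 control array, below the median, and 6.27 with overexpression, a difference of 0.78 and the 149th highest of all genes. In A549 it was at 9.53 on the control array, 9.49 with hairpin 1 and 9.27 with hairpin 2 (mean difference -0.15 ± 0.16, SD, n = 2). Every A549 value lay above both CRL-5907 values, and the hairpin difference did not exceed its SD. CCL5, which attracts T cells, was at 6.59 on the A549 control array and at 6.28 and 6.27 with the hairpins, a mean difference of -0.32 ± 0.00 (SD 0.0022, n = 2; limma unadjusted p = 0.00615, adjusted p = 0.276). Its hairpin 1 value was exactly that of the CRL-5907 control array, and overexpression read 6.26, so the A549 control array alone stood apart for CCL5. CCL20, the ligand of CCR6, was below the medians on all arrays, with 0.11 and -0.28 for the hairpins and 0.22 for overexpression. CCL26 and CCL28 were also below the medians on all arrays, and the hairpins disagreed for both: 0.00 and 0.36 for CCL26, -0.22 and 0.18 for CCL28.

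IL6, the cytokine that signals through gp130 and STAT3, had the furthest overexpression difference of the list. It read 6.61 (log2 level) on the CRL-5907 control array and 7.80 with overexpression, a difference of 1.19 or 2.29-fold, the 34th highest of all 14232 genes. In A549 it was at 3.80 on the control array, 3.06 with hairpin 1 and 3.18 with hairpin 2. The mean hairpin difference was -0.68 ± 0.08 (SD, n = 2), the 57th lowest of all genes, with an adjusted p of 0.285 by limma with Benjamini-Hochberg adjustment. IL6 was below the median on all 3 A549 arrays, so neither end of its knockdown difference was shown to exceed background. A second, dimmer feature carries the IL6 symbol. On it the hairpin differences were 0.08 and -0.03 and the overexpression difference was 0.51, all from values below the medians. With the mean of both features the mean hairpin difference was -0.325, under 1.5-fold, and the overexpression difference 0.852, still past it. The stretch before IL6, chr7:22727112-22727151 on the plus strand, is shown as that of the gene that moved furthest; capitals mark the kB consensus.
IL6: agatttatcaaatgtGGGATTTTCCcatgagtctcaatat

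The other members of the IL-6 family and the colony-stimulating factors stayed within 1.5-fold in every comparison with a manipulated array. LIF, which signals through LIFR and gp130, was at 6.13 on the A549 control array and 5.86 and 5.80 with the hairpins, a mean difference of -0.30 ± 0.05 (SD, n = 2), and at 6.37 and 6.52 in CRL-5907 (0.15). LIF's unadjusted limma p was 0.042 and its adjusted p 0.307. IL11, another gp130 cytokine, was at 7.32 on the A549 control array, 6.89 with hairpin 1 and 7.48 with hairpin 2, so the hairpins lay on opposite sides of the control. It read 6.62 and 6.41 in CRL-5907. CSF1, the macrophage growth factor, ranged only from 8.08 (CRL-5907 control) to 8.39 (hairpin 1), with an overexpression difference of 0.26. CSF3, the granulocyte growth factor G-CSF, was at 6.94 on the CRL-5907 control array and 6.54 with overexpression, a difference of -0.40, and at 6.60, 6.94 and 6.54 on the A549 arrays. Its hairpin 2 and overexpression values were exactly equal.

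In the IL-1 family IL18 differed from IL1A and IL1B. IL18, a cytokine that inflammasomes process and that induces interferon-gamma, read 6.34 (log2 level) on the CRL-5907 control array and 7.27 with overexpression, a difference of 0.94 or 1.91-fold, the 87th highest of all genes. In A549 it was at 8.48 (control), 8.74 (hairpin 1) and 8.64 (hairpin 2), a mean difference of 0.21 ± 0.07 (SD, n = 2). IL18 was therefore higher than its control on every manipulated array, whichever way NEDD9 was changed, although no test called the A549 difference (limma adjusted p = 0.427). IL1A and IL1B, the IL-1 ligands that activate NF-kB, had overexpression differences of -0.25 and -0.25. For IL1A the hairpins read 0.15 and -0.52, and for IL1B -0.08 and -0.28. IL1A was below the medians on all arrays and IL1B on 2. IL1RN, the IL-1 receptor antagonist, ranged from 3.73 to 3.77 over the 5 arrays, below the medians.

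TNFSF15 (TL1A, a ligand of the death receptor DR3) was bright on all arrays and lay on opposite sides of its controls. Its log2 levels were 8.40 for the A549 control, 7.85 with hairpin 1 and 7.78 with hairpin 2. The mean difference was -0.58 ± 0.05 (SD, n = 2), the 108th lowest of all genes, with a limma unadjusted p of 0.0153 and an adjusted p of 0.276. Hairpin 2 passed 1.5-fold and hairpin 1 (-0.55) fell just short. Centring the arrays, quantile normalizing them again, or taking out the trend with level each put TNFSF15 past 1.5-fold with both hairpins. In CRL-5907 it was at 7.29 on the control array and 7.95 with overexpression, a difference of 0.66 or 1.58-fold. That difference was under 1.5-fold with the second quantile normalization and with the trend taken out. TNFSF10, the death ligand TRAIL, was at 5.92 on the CRL-5907 control array and 6.52 with overexpression (0.61), and it too dropped under 1.5-fold in both those settings. Its value was exactly equal on the CRL-5907 control, A549 control and hairpin 2 arrays, and only the overexpression array stood clearly above. TNF, the founding cytokine of the family, differed by less than 0.05 in every comparison and was below the medians on all arrays. IL32 was bright and within 0.16 of its controls, and IL23A, a subunit of IL-23, was below the medians with -0.09 and 0.33 for the hairpins and -0.36 for overexpression.

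The NF-kB subunits and their feedback inhibitors held 1 gene past 1.5-fold with overexpression, NFKBIA, of 5 measured, beside 2.9% of all genes. By sign all 5 were higher, beside 48.1% of all genes, on single arrays. All 5 were above the median on all 5 arrays, and their median overexpression difference was 0.51 (all genes 0.00). With the hairpins their median was -0.12 and -0.32 (all genes 0.02 and 0.00). By sign 4 of 5 were lower with both hairpins, beside 27.7% of all genes, or 46.4% with centred arrays. NFKBIA, which encodes IkB-alpha, was at 9.82 on the CRL-5907 control array and 10.59 with overexpression, a difference of 0.77 or 1.70-fold. In A549 it was at 9.67, 9.49 and 9.31 (control, hairpin 1, hairpin 2), a mean difference of -0.28 ± 0.13 (SD, n = 2; limma adjusted p = 0.508). TNFAIP3, which encodes the ubiquitin-editing inhibitor A20, was at 6.25 and 6.76 in CRL-5907, a difference of 0.51, and at 6.73, 6.44 and 6.41 in A549. Its hairpin difference of -0.31 ± 0.02 (SD, n = 2) had a limma unadjusted p of 0.0157 and an adjusted p of 0.276. For NFKBIA and TNFAIP3 alike both hairpin arrays lay under the A549 control array and the overexpression array lay over the CRL-5907 control array, but only NFKBIA with overexpression passed 1.5-fold.

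NFKB1, the gene of p105 and p50, was at 7.06 and 7.60 in CRL-5907 (0.54) and at 6.69, 6.82 and 6.75 on the A549 control, hairpin 1 and hairpin 2 arrays. It was the member of this group that was higher with both hairpins, and its hairpin 2 difference of 0.06 changed sign with the second quantile normalization. NFKB2, the gene of p100 and p52, was at 8.06 and 8.54 in CRL-5907 (0.48) and at 7.36, 7.27 and 6.94 in A549. RELB, the partner of p52, had the smallest overexpression difference of the group, 0.25, from 6.70 to 6.95, and read 6.27, 6.16 and 6.04 in A549. The stretches before NFKBIA (chr14:35404806-35404845, minus strand), TNFAIP3 (chr6:137867177-137867228, plus strand) and NFKB1 (chr4:102501295-102501334, plus strand) are given as those of the feedback genes, with kB letters in capitals.
NFKBIA: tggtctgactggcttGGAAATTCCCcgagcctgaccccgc
TNFAIP3: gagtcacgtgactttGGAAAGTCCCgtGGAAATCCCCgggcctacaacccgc
NFKB1: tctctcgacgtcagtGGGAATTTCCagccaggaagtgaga

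TNFAIP2, ICAM1, CD14 and TLR2 did not follow that group with overexpression. ICAM1, the adhesion molecule that leukocyte integrins bind, was at 8.79 on the CRL-5907 control array and 8.78 with overexpression, and at 5.35, 5.20 and 5.03 on the A549 arrays, all below the medians. CD14, a co-receptor for lipopolysaccharide, was at 6.47 on the A549 control array, 6.08 with hairpin 1 and 5.63 with hairpin 2, so that hairpin 2 alone passed 1.5-fold (-0.84). Its mean difference of -0.61 ± 0.32 (SD, n = 2) had a limma adjusted p of 0.546, and its levels in CRL-5907 were 6.91 and 6.96. TNFAIP2, a TNF-induced gene, was at 8.40 to 8.59 on all 5 arrays. TLR2, a receptor for bacterial lipoproteins, was below the medians on all arrays, with hairpin differences of -0.04 and 0.42 and exactly equal values in CRL-5907.

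At 2-fold 7 of the 34 genes differed between the control arrays of the lines, while 2 passed 2-fold with overexpression and 0 with both hairpins. Of all 14232 genes 1418, 99 and 19 did so, in the same order. The decline over the 3 comparisons was thus shared by all genes and is not read as a trait of the list. On the A549 control array 5 of the 34 genes were at least 2-fold higher than on the CRL-5907 control array and 2 were at least 2-fold lower, beside 6.44% and 3.53% of all genes. CCL2 was 16.4-fold higher in A549, IL18 4.41-fold, CXCL8 4.01-fold and TNFSF15 2.15-fold. The fifth was CXCL2, below the median on both control arrays, so no size is read from it. ICAM1 was 10.8-fold lower in A549. IL6 was 6.99-fold lower on its brighter feature, a log2 difference of -2.81, but differed by -0.46 on the dimmer one and by -1.63 with the mean of both. The CCL2 value in CRL-5907 and the ICAM1 and IL6 values in A549 were below the medians and not shown to exceed background. By sign 19 were higher and 13 lower, beside 51.8% and 39.9% of all genes, and with centred arrays 14 and 20, beside 38.3% and 61.7%. The median difference over the 34 was 0.03 (all genes 0.01). Centring the arrays shifted the median of all genes to -0.10, and TNFSF15 was then under 2-fold, as it was with the second quantile normalization. Per line there is 1 control array, and LKB1, NEDD9 and all other features of the lines cannot be told apart.

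**Figure D3:**
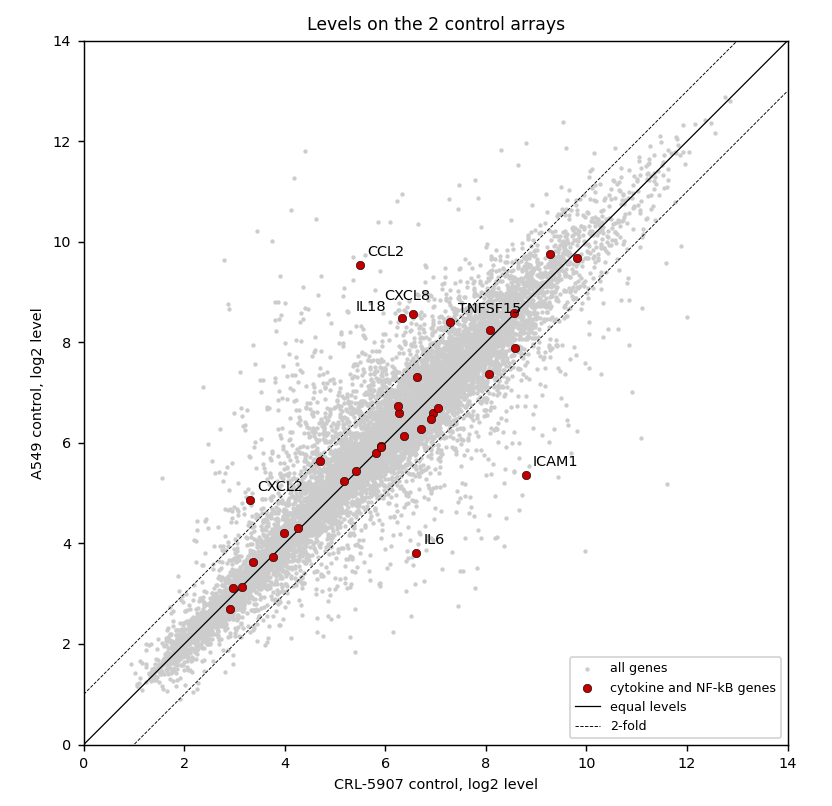
Log2 level on the A549 control array against that on the CRL-5907 control array, for all 14232 genes (grey) and the 34 cytokine and NF-kB genes (red), with dashed lines at 2-fold. The 7 named genes lie outside the dashed lines, 5 above and 2 below.

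This comparison and the overexpression comparison share the CRL-5907 control array, so their differences are set side by side and not counted together. CXCL8 differed by 2.00 between the lines and by 1.02 with overexpression, IL18 by 2.14 and 0.94, CCL2 by 4.04 and 0.78, CXCL2 by 1.55 and 0.73 and TNFSF15 by 1.11 and 0.66. With overexpression all 5 levels remained below those of the A549 control array. IL6 differed by -2.81 between the lines and by 1.19 with overexpression, which took it further from A549. NFKBIA differed by -0.15 and 0.77.

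Knockdown and overexpression share no array, and 10 of the 34 genes were lower with both hairpins and higher with overexpression by sign, beside 10.1% of all genes. They were IL6, CXCL8, CCL2, LIF, TNFSF15, CD14, NFKBIA, TNFAIP3, NFKB2 and RELB. Under the scalings tried this count was 9 to 11 of 34, while the share of all genes went up to 16.4%. CD14 was in it by an overexpression difference of 0.05 whose sign turned under those same settings of quantile normalization and trend. The reverse pattern, higher with both hairpins and lower with overexpression, occurred in 1 of the 34 (CXCL5), beside 13.8% of all genes. A further 3 were higher on all 3 manipulated arrays (CXCL2, IL18 and NFKB1) and 6 lower on all 3 (CXCL3, CCL5, IL1B, IL1RN, IL32 and ICAM1), beside 24.2% and 14.3% of all genes. At 1.5-fold with both hairpins and overexpression, 2 of 14232 genes (0.0141%) were lower and then higher, IL6 and the matrix-crosslinking oxidase LOXL2. The reverse held for 0 of the 34 and 0.0632% of all genes.

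**Figure D4:**
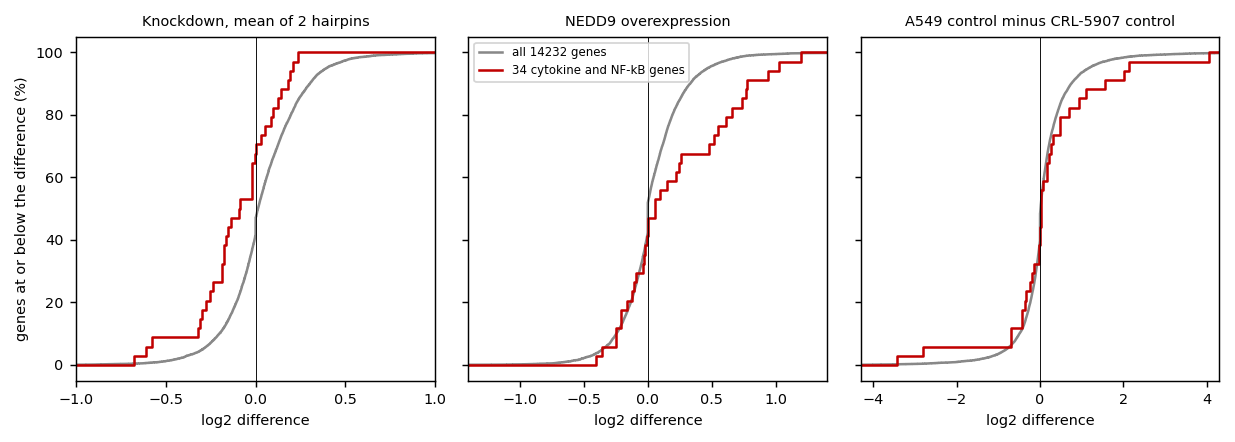
Cumulative share of genes (vertical axis, percent) at or below each log2 difference (horizontal axis) for the 34 cytokine and NF-kB genes (red) and all 14232 genes (grey), for the mean of the hairpins, overexpression, and the control arrays of the lines. The red line lies to the left of the grey one with knockdown (medians -0.09 and 0.01). With overexpression the lines part most above 0, where 8 of 34 genes pass 1.5-fold.

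Genes of the surrounding pathway outside the list were counted by the same rules. Of 26 measured signalling components (receptor adapters, kinases of the IKK complex, RELA, REL and further inhibitors) 0 passed 1.5-fold with both hairpins, with overexpression or 2-fold between the lines. Of all genes 0.794% were higher and 0.302% lower with both hairpins, 2.9% and 1.35% with overexpression, and 6.44% and 3.53% between the lines. At such shares a short list holds few genes, so these counts are not read as a trait of the pathway. By sign 17 of the 26 were higher with overexpression, beside 48.1% of all genes. Their median was 0.11 (all genes 0.00), and it was 0.03 with the second quantile normalization and 0.05 with the trend taken out. Their differences ran from -0.15 for TAB1, an adapter of the kinase TAK1, to 0.41 for REL, an NF-kB subunit. RELA, the main activating subunit, was at 9.32 and 9.46 in CRL-5907 and at 9.13, 9.15 and 9.09 in A549. Of 24 measured receptors of the listed ligands, TLR4 was 1.5-fold higher with overexpression (0.62) and CCR1 lower (-1.35), beside 2.9% and 1.35% of all genes, and both lay below the medians on all arrays. Between the lines 1 of the 24 was at least 2-fold higher and 4 lower, beside 6.44% and 3.53% of all genes. IL6ST, which encodes gp130, was higher in A549 (1.57), and TLR4 (-1.78), IL1R2, a decoy receptor for IL-1 (-1.43), LIFR (-1.32) and IL6R (-1.31) were lower. LIFR was also higher with both hairpins (0.55 and 0.49), under 1.5-fold and from an A549 control value of 5.34, below the median. At a limma unadjusted p under 0.05, 2 of the 24 receptors were higher (LIFR and TNFRSF10A), beside 9.68% of all genes. After adjustment 0 of the 24 were called. Thus IL6 and its own receptor chain IL6R were both higher on the CRL-5907 control array, and the shared chain gp130 was higher on the A549 control array.

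Among 26 other measured targets of NF-kB and cytokine signals, 0 passed 1.5-fold with overexpression, beside 2.9% of all genes higher and 1.35% lower. With both hairpins 1 was higher by that fold, beside 0.794% of all genes, and 0 lower, beside 0.302%. It was CXCL11 (1.75 and 1.17), an interferon-induced chemokine below the medians on all arrays. Between the lines 7 of the 26 were at least 2-fold lower in A549 and 2 higher, beside 3.53% and 6.44% of all genes. The furthest lower were LCN2, an iron-scavenging acute-phase protein (9.58 in A549 and 11.58 in CRL-5907), SOCS3, a feedback inhibitor of gp130 signals (5.97 and 7.50), ZC3H12A, an RNase that degrades IL6 mRNA (7.85 and 9.27), and CXCL16 (6.94 and 8.22).

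The promoter table used here held entries for 26 of the 34 genes. The others were CCL2, CCL5, IL18, LIF, CSF1, CSF3, RELB and CX3CL1. In the 250 bases before the start the kB consensus was found in 11 of the 26 (42.3%) and GGNNNTTCC in 14 (53.8%). Of 27303 promoters 5.05% and 17.1% held them, and of 11384 genes measured on the arrays 6.01% and 18.7%. The list names NF-kB targets from known biology, so its higher share of kB letters was given in advance. The alike stretches of CXCL2 and CXCL3, and of CXCL5 and CXCL6, were each counted separately. The AP-1 letters TGANTCA were found in 7 (26.9%), beside 6.6% of all promoters and 4.74% of measured genes. These 7 included CXCL8, TNFSF15, IL11 and CD14. Both strands were searched. Either kB form was found in 15 of the 26 (57.7%), beside 19.3% of all promoters and 21.4% of measured genes. Of these 15, IL6, CXCL8, NFKBIA and CXCL2 (the last from values below the array medians) passed 1.5-fold with overexpression, beside 2.9% of all genes higher. The others did not: CCL20, CXCL3, CXCL5, CXCL6, ICAM1, IL23A, IL32, NFKB1, TLR2, TNFAIP2 and TNFAIP3. Of the 11 genes without kB letters in this window TNFSF10 and TNFSF15 passed. The shares among all genes with and without the letters were not counted, so no link is read from this split. CCL2 and IL18 also passed but had no entry. ICAM1, shown because its level differed most between the lines in the downward direction while overexpression left it at -0.00, carries a GGNNNTTCC match in the stretch chr19:10270919-10270957 on the plus strand.
ICAM1: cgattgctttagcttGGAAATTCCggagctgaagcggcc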

How the data were processed

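The authors deposited log2 expression values for 22011 features (transcript clusters) on 5 Affymetrix human exon arrays, 1 array per sample. The submitters' processing notes name RMA, which normalizes arrays together, and Affymetrix Power Tools. The log base was judged from the range of the deposited log2 values. Versions, genome build and background detection are not given in the sources used here. RMA can give several arrays exactly equal values.

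Features with 1 gene symbol in the platform annotation (14432) were used, 2408 with several symbols and 5171 with none were left out, and each of the 14232 genes took its brightest feature by mean over the arrays. No filter on level was applied, since one that passes a gene through its high group would favour differences. Samples were grouped by title. Knockdown was fitted with limma 3.58.1 in R 4.3.3 on the A549 arrays (eBayes trend on, leaving 1 residual degree of freedom) with Benjamini-Hochberg adjustment over all 14232 genes. Other differences are between single arrays and have no test. The limma fit and the rule of 1.5-fold with both hairpins were tested on simulated data, and the other steps were not. Alternatives are in the closing section. Named genes were all measured list members, NEDD9, and up to 4 further genes past a fold threshold per fixed list. Genes at the ends of a range, and those named in the closing observations, were chosen after their values were seen. The members, lists, motifs and tests were chosen with earlier results of these data known. Promoter letters came from RefSeq (GRCh38.p14), with the first entry of a gene on a main chromosome.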

Additional observations from a re-analysis of the deposited data

How the results depend on the processing

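No paired analysis was possible because the groups share no replicate pair: controls and overexpression have 1 array each. limma called 0 genes in every setting (lowest adjusted p 0.269 to 0.439). Of the 34 genes, IL6 alone (1) passed 1.5-fold with both hairpins; the count was 2 with centred arrays, a further quantile normalization or the trend removed (TNFSF15 added), 0 with the mean of features, either level filter or 2-fold, and 1 to 3 with 1 hairpin left out. IL6 also left, or TNFSF15 joined, the genes lower with both hairpins and higher with overexpression: 2 with centred arrays, 0 with the mean of features, either level filter or 2-fold, and 1 to 2 with 1 hairpin left out. With overexpression the count stayed at 6 to 8 except for 2 at 2-fold (IL6 and CXCL8). Between the lines 11 of the 34 passed 1.5-fold, beside 3066 of all 14232 genes.

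Over all genes the 156 past 1.5-fold with both hairpins (72.4% higher, 60.9% with centred arrays) became 63 when the brightest array compared had to exceed its median, 35 when the mean level did, 19 at 2-fold and 353 to 550 with 1 hairpin. The 605 with overexpression became 322, 289 and 99 (80.4%, 81.3% and 74.7% higher, from 68.3%). The 1418 between the lines became 940 with the mean-level filter and 3066 at 1.5-fold. The 2 opposite genes became 1 with either filter, 0 at 2-fold and 9 to 11 with 1 hairpin. Fewer genes enter under a filter; other causes were not tested. None of the results recomputed under these alternatives reversed past its threshold. With 1 control array per line, array number limits all of these values.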

Other observations

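Outside the list, LYZ, which encodes lysozyme and was fixed here as a leukocyte marker, had log2 levels of 3.55 on the A549 control array, 5.55 with hairpin 1 and 5.34 with hairpin 2, differences of 1.99 and 1.78, and 4.28 and 3.93 in CRL-5907. All 5 values lay below the array medians, and PTPRC stood at 1.72 on every array. CCR1, a receptor of CCL5, was at 4.03 on the CRL-5907 control array and 2.68 with overexpression, also below the medians.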
